A study of Mus musculus with 4 samples.

Results

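Neuron-like cells that carried Atoh1 transcripts were compared with neuron-like cells that did not, within each of 4 mouse medulloblastomas. A cell was called neuron-like when it had at least 1 unique molecular identifier (UMI, 1 counted transcript molecule) for at least 4 of the 5 genes Cntn2, Neurod1, Stmn2, Pnoc and Rab3a, for at most 2 of 10 mitotic genes (Ccnb1, Cdc20, Ube2c, Plk1, Cenpe, Cenpf, Cenpa, Hmmr, Kif23 and Prc1), and none for the leukocyte gene Ptprc. This rule took 564 of the 6509 deposited cells, and 182 of them had Atoh1 while 382 did not. By tumour, 28 of 798, 375 of 2589, 109 of 1229 and 52 of 1893 cells were neuron-like in tumours 1, 2, 3 and 4, which is 3.51%, 14.5%, 8.87% and 2.75%. Atoh1 was found in 20, 101, 41 and 20 of them. All 4 libraries were 10x Genomics single-cell RNA sequencing of live cells from end-point tumours of the sonic hedgehog (SHH) subgroup. Every tumour came from an untreated mouse of genotype Ptch1+/- that had been irradiated at birth, and no tumour-free or unirradiated group is part of the comparison. The labels number the tumours 1 to 4 without stating that each came from a different mouse, so the tumour is the replicate. The tests combine its spread with an error estimated over all tested genes.

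Atoh1 is a basic helix-loop-helix transcription factor of cerebellar granule neuron progenitors. It is needed for these cells to form, helps to keep them responsive to SHH and dividing, and is normally switched off as they leave the cell cycle and become granule neurons. SHH medulloblastoma arises from this lineage when the pathway is active without its brake, the receptor Ptch1. Neurod1 and Cntn2, used by the rule, come on as granule cells leave the cycle, and Stmn2, Pnoc and Rab3a are neuronal genes. A cell that holds both Atoh1 and these genes holds transcripts of both the progenitor and the early neuronal stage. In the annotation of GRCm38, the assembly behind mm10, Atoh1 is a protein-coding gene on the plus strand of chromosome 6, from 64729125 to 64731245.

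The label was checked against neuronal genes that the rule did not use. The summed level of Tubb3, Dcx, Map1b, Elavl3, Elavl4, Gap43, Snap25, Syt1, Rbfox3 and Mapt was 4196, 9708, 6476 and 4926 CPM (UMIs scaled to an equal total in every pool of cells) in the neuron-like cells of tumours 1 to 4, against 623, 1275, 2084 and 354 CPM in the other cells with at most 1 of the 5 neuronal genes. These neuronal genes were therefore higher in every tumour in the cells the rule took. Of 9 granule lineage markers, 8 had UMIs in the neuron-like cells of every tumour, and Gabra6, a marker of mature granule neurons, was at 0 in all 4. The same held in tumours 1 to 3 for the other cells with at most 1 neuronal gene, so this count does not set neuron-like cells apart. In tumours 1 to 3 the granule lineage markers summed to 1934, 2493 and 2767 CPM in neuron-like cells, against 753, 1331 and 1673 in those other cells. Purkinje cell markers summed to 254, 266, 305 and 226 CPM in neuron-like cells and to 91.4, 111, 209.7 and 29.0 CPM in the other cells with at most 1 neuronal gene, with Calb1 and Lhx5 at 0 in the neuron-like cells of all 4 tumours. Unipolar brush cell markers summed to 15.2, 31.6, 22.2 and 17.6 CPM against 11.1, 13.3, 18.4 and 6.45 CPM, with Lmx1a at 0 in the neuron-like cells of all 4. GABAergic interneuron markers (Gad1, Gad2, Slc32a1, Pax2 and Slc6a5) summed to 2.17 CPM in tumour 1 and to 0 in the other tumours. Endothelial markers stayed at or below 4.76 CPM and pericyte and fibroblast markers at or below 2.17 CPM. Immune transcripts were present in tumour 4, where the neutrophil genes S100a8 and S100a9 summed to 544.6 CPM and 6 microglia and macrophage genes to 276.7 CPM in neuron-like cells, against 11.1 to 97.6 CPM and 13.0 to 82.4 CPM in tumours 1 to 3. The libraries held a median of 15283.5, 7754, 6799 and 7825 UMIs per cell, so the cells of tumour 1 held the most UMIs. Pairs of libraries shared 0 to 7 cell barcodes.

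Atoh1 was found in a larger share of neuron-like cells than of cells with Ptprc in 3 of 4 tumours, and in a smaller share than of progenitor-type cells in 3 of 4. For this description each cell was thinned at random to 3700 UMIs, and shallower cells (0, 27, 21 and 2 neuron-like cells) were left out. At this equal depth, 57.1% of 28 cells in tumour 1 had Atoh1, 17.2% of 348 in tumour 2, 31.8% of 88 in tumour 3 and 18.0% of 50 in tumour 4. The exact 95% binomial intervals, which cover counting error only, were 37.2 to 75.5%, 13.4 to 21.6%, 22.3 to 42.6% and 8.58 to 31.4%. At the deposited depth the shares were 71.4%, 26.9%, 37.6% and 38.5%. Atoh1 chose the classes, so these values carry no test.

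Free RNA in a droplet can give a UMI in a cell that does not express the gene, and cells with Ptprc, the leukocyte antigen, are given beside the neuron-like cells as a comparison. At the same 3700 UMIs, Atoh1 was found in 19.7% of 132 such cells in tumour 1, 9.18% of 98 in tumour 2, 36.4% of 11 in tumour 3 and 6.43% of 1042 in tumour 4. Their median UMIs before thinning were 14221.5, 6270, 8381 and 7772, against 14143, 5827, 4955 and 7298 in neuron-like cells. The neuron-like share was above the Ptprc share in tumours 1, 2 and 4, and in tumour 3 it was below that of the 11 cells with Ptprc. Over the 4 tumours the mean share was 31.1% (SD 18.6) in neuron-like cells and 17.9% (SD 13.6) in Ptprc cells. The binomial intervals count cells within 1 tumour, so no comparison of cell groups rests on them. The Ptprc cells also held neuronal markers, at 962, 623, 1810 and 487 CPM, and granule lineage markers, at 952, 439.9, 694.6 and 282 CPM in tumours 1 to 4, so they were not free of transcripts of the tumour lineage. At the full depth, Atoh1 stood at 175.6, 82.4, 127 and 72.5 CPM in neuron-like cells and at 100.1, 61.1, 166 and 33.3 CPM in the Ptprc cells. How many of the Atoh1 calls of single cells are background was not tested.

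Progenitor-gate cells (at most 1 of the 5 neuronal genes, at most 2 of the mitotic genes, no Ptprc and at least 3 of Zic1, Zic2, Zic4, Pax6 and Meis1, 376 cells in all) had Atoh1 in 56.3%, 69.6%, 71.25% and 38.5% of cells at equal depth. Their share was above that of neuron-like cells in tumours 2, 3 and 4, in tumour 4 from 26 progenitor-gate cells. Over the 4 tumours its mean was 58.9% (SD 15.2), against 31.1% (SD 18.6) in neuron-like cells, with no test. The neuron-like cells of tumour 1 held Atoh1 about as often as its progenitor-gate cells.

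**Figure D1:**
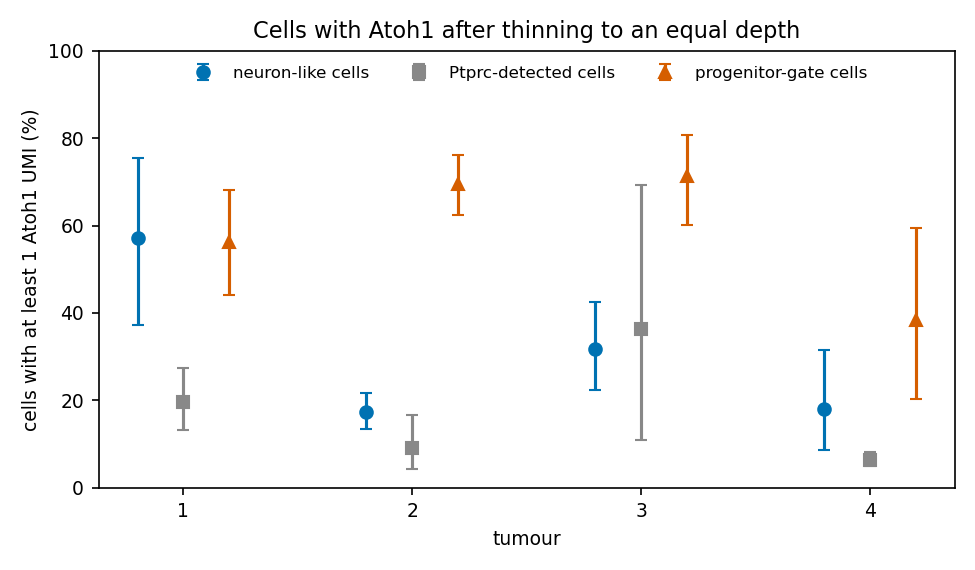
Share of cells with at least 1 Atoh1 UMI (percent, y axis) in each tumour (x axis) after thinning to 3700 UMIs per cell, for neuron-like cells, Ptprc-detected cells and progenitor-gate cells; bars are exact 95% binomial intervals. Neuron-like cells lie above the Ptprc-detected cells in tumours 1, 2 and 4 and below them in tumour 3, where 11 such cells were measured.

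Among all thinned cells without Ptprc and with at most 2 mitotic genes, the share with Atoh1 was highest at 1 neuronal gene in tumours 2 and 3 and lower at 2, 3 and 4. In tumour 2 it was 46.6% of 247 cells with no neuronal gene, 66.9% of 414 cells with 1 neuronal gene, 60% of 400 with 2, 38.0% of 347 with 3, 14.0% of 214 with 4 and 15.1% of 53 with all 5. In tumour 3 it was 61.8% of 55 cells with no neuronal gene, 70.8% of 171 with 1, 50% of 154 with 3 and 30.3% of 76 with 4, and 3 of the 6 cells with all 5 had it. Tumour 1 spanned 33.3% to 48.1%, with 3 cells holding all 5 genes. In tumour 4 it was highest at 2 genes, with 36.7% of 79 cells, and was 24.4% of 41 with 4 genes and 5.26% of 19 with all 5. Across the edge of the rule at deposited depth, cells with 3 neuronal genes, just outside, had Atoh1 in 73.1%, 62.6%, 69.7% and 51.2% of cases, and cells with 4, just inside, in 66.7%, 27.5%, 38.1% and 50%. Otherwise eligible cells with 3 mitotic genes, just outside, had it in 50%, 54.2%, 70.8% and 41.7%, and those with 2, just inside, in 54.5%, 45.1%, 50% and 35.3%.

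**Figure D2:**
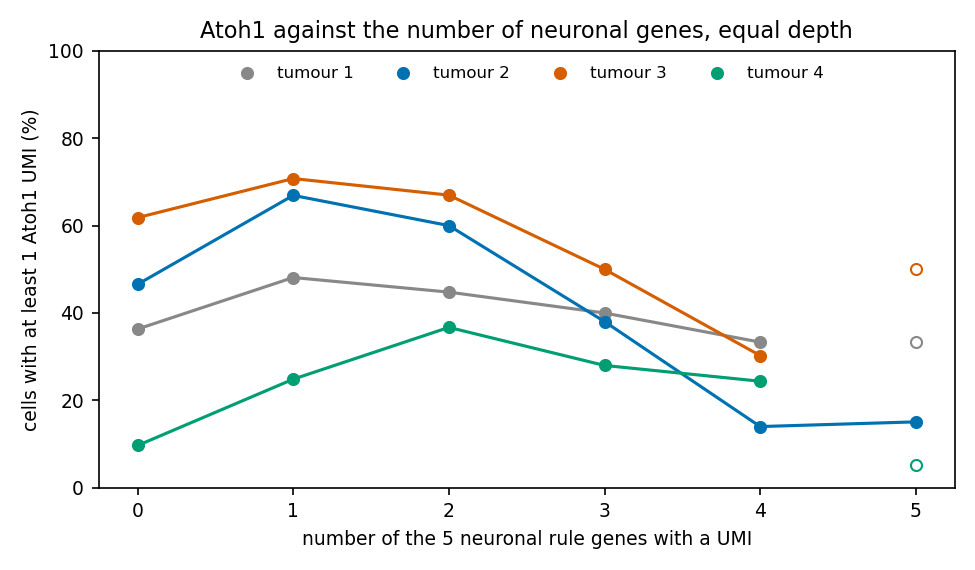
Share of cells with at least 1 Atoh1 UMI (percent, y axis) against how many of the 5 neuronal genes had a UMI (x axis), per tumour, at 3700 UMIs per cell; open points rest on fewer than 20 cells. In tumour 2 the share goes from 66.9% at 1 gene to 14.0% at 4, and in tumour 1 it lies between 33.3% and 48.1% throughout.

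Neuron-like cells with Atoh1 held more UMIs than those without it in every tumour, with medians of 15160.5 against 13588, 7570 against 5409, 5845 against 4605 and 8902.5 against 6867 in tumours 1 to 4. Cells with Atoh1 were therefore paired, where one was found, with a cell without it from the same tumour whose log2 UMIs, Atoh1 aside, lay within 0.1. This paired 142 of the 182 cells, 7 of 20, 91 of 101, 31 of 41 and 13 of 20 by tumour, and left out the rest. Tumour 1 had under 10 pairs and did not enter the fit, so the comparison rests on 135 pairs in 3 tumours. In the paired cells Atoh1 itself stood at 221, 307 and 160 CPM in tumours 2, 3 and 4 in the class with it, and at 0 in the other class by definition. Among the genes the rule used, Neurod1 stood at 1558 against 2357, 1382 against 2136 and 1156 against 1613 CPM (with against without Atoh1), and Stmn2 at 2100 against 2994, 1370 against 1793 and 1406 against 2009. Cntn2 stood at 172.7 against 257, 252 against 263 and 189 against 317, and Pnoc at 123 against 169, 42.1 against 79.6 and 209.3 against 336. These 4 genes were lower beside Atoh1 in the 3 tumours. Rab3a, at 562 against 719.5, 427 against 636 and 409 against 386, was lower in tumours 2 and 3 and higher in tumour 4. In the 7 pairs of tumour 1, Cntn2 (199 against 158), Rab3a (319 against 188) and Stmn2 (1175 against 1020) were higher with Atoh1, while Neurod1 (1125 against 1158) and Pnoc (29.9 against 139) were lower. The rule used these 5 genes, so they were not tested.

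Of 8842 genes tested with limma on the within-tumour differences of log2(CPM + 10), 2 were lower and 0 were higher in cells with Atoh1 at a Benjamini-Hochberg adjusted p under 0.05. Those are 0.0226% and 0.0% of the genes tested. At an unadjusted p under 0.05 there were 618 genes (6.99%), of which 291 were lower and 327 higher, 3.29% and 3.7%. With 3 tumours, 13.3% of all genes were lower in all 3 and 14.6% were higher in all 3, the background for the counts below. In data simulated for this comparison over 8842 genes, the fit recovered 35 of 35 genes changed 4-fold and 8 of 12 changed 2-fold where the mean level was at least 100 CPM. Below 100 CPM it recovered 17 of 65 and 0 of 88. The simulated data held counting error only and the same change in each tumour. These shares therefore do not cover genes whose difference varies between tumours. A difference of 2-fold in a gene under 100 CPM was therefore not detectable at this depth. Differences are on the log2(CPM + 10) scale, with minus without Atoh1, which understates those of low genes.

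**Figure D3:**
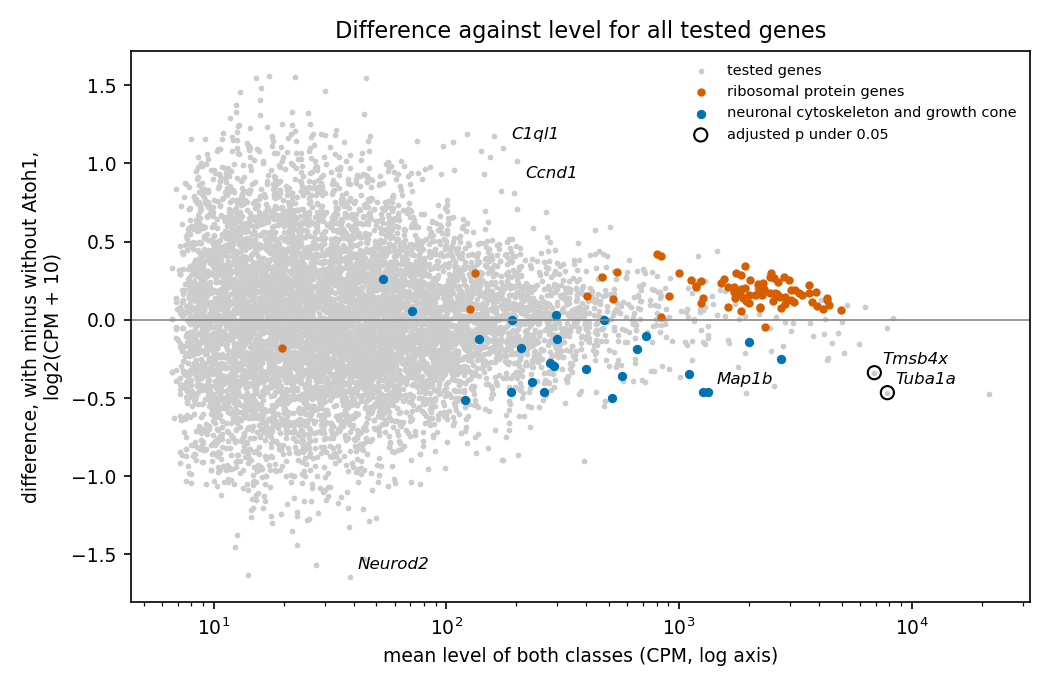
Difference between neuron-like cells with and without Atoh1 (y axis, log2(CPM + 10), mean over 3 tumours) against the mean level of both classes (x axis, CPM, log axis) for the 8842 tested genes. Tuba1a at -0.47 and Tmsb4x at -0.34, circled, are the genes past the threshold; ribosomal protein genes lie mostly above 0 and neuronal cytoskeleton genes mostly below it.

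Tuba1a, an alpha tubulin of young neurons and the main partner of beta tubulin in their microtubules, was lower in cells with Atoh1. It stood at 9713, 5419 and 4834 CPM with Atoh1 in tumours 2, 3 and 4, and at 12415.5, 7452 and 7255 CPM without. The level was lower in each of the 3 tumours, and the difference was -0.47 (SE 0.045, n = 3, limma adjusted p = 8.56e-05). In the 7 pairs of tumour 1 it stood at 4741 with and 5563 without. Tmsb4x, thymosin beta 4, which binds actin monomers, was the other gene past the threshold. It stood at 7006, 4432 and 6836 CPM with Atoh1 and at 9629, 5793 and 7692 without, again lower in 3 of 3 tumours. The difference was -0.34 (SE 0.051, n = 3, limma adjusted p = 0.0165). In tumour 1 it stood at 6454 with and 5988 without Atoh1, the other direction. With at least 5 pairs, so that all 4 tumours entered, it was -0.23 (limma adjusted p = 0.523) and did not pass, and it did not pass without tumour 2 (-0.28) or without tumour 3 (-0.31). Tuba1a lies on chromosome 15 from 98949837 to 98953703 and Tmsb4x on chromosome X from 167207093 to 167209315, both on the minus strand of GRCm38. Both genes have near-identical copies, and the treatment of reads that map to several genes is not stated in the labels, so both are uncertain.

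How many genes pass depended on single tumours. Without tumour 4, which gave 13 pairs and carried the immune transcripts, the fit called 31 lower and 23 higher genes, and without tumour 2 or tumour 3 it called 1 lower and 0 higher. Tuba1a passed in each of these. When cells with more than 4 UMIs of immune marker genes were removed, tumour 4 was left with too few pairs, and 35 genes were lower and 23 higher in the other two.

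The list of 24 neuronal cytoskeleton and growth cone genes, which does not hold Tuba1a, had a median difference of -0.26, against -0.005 over all genes. None of its 24 members passed the threshold, 11 had an unadjusted p under 0.05 in the lower direction, and 15 were lower in all 3 tumours, 62.5% against 13.3% of all genes. The list and the genes in it were drawn up with earlier results of these data known. Map1b, a microtubule-associated protein of growing axons, stood at 1334, 1125 and 901 CPM with Atoh1 and at 1797, 1519 and 1302 without, a difference of -0.46 (SE 0.084, adjusted p = 0.0593). The values of each tumour were lower with Atoh1, but the groups overlapped across tumours. Stmn4, a stathmin that regulates microtubules, differed by -0.50 (adjusted p = 0.391), Dpysl3, a growth cone protein, by -0.46 (0.703), and Mapt, the microtubule-associated protein tau, by -0.51 (0.703). Tubb2b and Tubb5, beta tubulins, differed by -0.46 (0.0807) and -0.25 (0.126), Dbn1, the actin-binding drebrin, by -0.86 (0.199), and Actb, beta actin, by -0.26 (0.0807). Dcx, a microtubule protein of migrating neurons, was at 212, 277 and 170 CPM with Atoh1 and 260, 373 and 278 without (-0.46, adjusted p = 0.633). Across the 4 tumours, summed over the list, the level was 9581, 15799, 12825 and 10217 CPM with Atoh1 and 10225, 20189, 15096 and 12144 without. The sum was thus lower with Atoh1 in tumour 1 too, but single members differed. In its 7 pairs Stmn4 (0.81), Mapt (0.84) and Dbn1 (0.48) went the other way. Map1b, Dpysl3, Tubb2b, Tubb5, Actb and Dcx were lower there, by -0.36, -0.17, -0.13, -0.09, -0.28 and -0.14.

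Other genes with the lowest p in the lower direction were Itm2b, a membrane protein, at 1281, 1052 and 1031 CPM with Atoh1 and 1691, 1519 and 1461 without (-0.47, SE 0.084, adjusted p = 0.0593). Its groups did not overlap, as was so for 3.88% of all genes in this direction. In tumour 1 it stood at 1205 with and 1069 without. Rtn1, a reticulon of the neuronal endoplasmic reticulum, differed by -0.42 (0.0593) and Celf4, a neuronal RNA-binding protein, by -0.90 (0.0676). Nnat, an imprinted gene of developing brain, differed by -0.47 (0.199), and Kcnk1, a potassium channel of the leak type, by -0.90 (0.199). None of these 5 passed the threshold.

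Of 20 neuronal differentiation factors tested, 0 passed, 9 were lower in all 3 tumours (45.0%) and 1 was higher in all 3, with a median difference of -0.28. The largest difference was that of Neurod2, a helix-loop-helix factor of maturing neurons. It stood at 37.3, 0 and 10.0 CPM with Atoh1 in tumours 2, 3 and 4 and at 100.5, 42.9 and 39.8 CPM without, from 27, 0 and 1 UMIs against 72, 7 and 4. The groups did not overlap, and in tumour 1 the levels were 19.9 and 89.1 CPM. The difference of -1.65 (SE 0.39, n = 3) had an adjusted p of 0.213 and so failed the correction, on counts that are low in tumours 3 and 4. Rbfox3, the neuronal nuclear antigen NeuN, differed by -0.54 (adjusted p = 0.619) and was lower in each of the 3 tumours. Myt1 and Scrt2, zinc finger factors of young neurons, differed by -0.77 (0.703) and -0.59 (0.708). Nfic, a nuclear factor I gene, differed the other way by 0.87 (0.619), while its relative Nfib differed by -0.21 (0.687) and was level in tumour 3, at 2297 and 2290 CPM. Chd7, a chromatin remodeller needed for granule cells, differed by -0.26 (0.721).

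Of 14 granule lineage factors, 0 passed, 6 were lower in all 3 tumours (42.9%) and 2 higher in all 3, with a median difference of -0.25. Pax6, a homeodomain factor of granule cells, stood at 442.5, 469 and 260.2 CPM with Atoh1 and at 468, 802 and 437 without. The gap lay in tumours 3 and 4, with little in tumour 2, and the difference was -0.52 (SE 0.15, adjusted p = 0.491). Zic1, a zinc finger factor of the lineage, stood at 758, 860.0 and 651 CPM with Atoh1 and 953.5, 961 and 865 without. Its groups did not overlap and the difference was -0.30 (adjusted p = 0.619). The 16 genes linked to Atoh1 as partners or targets split both ways, with 3 higher and 4 lower in all 3 tumours and a median of 0.09. Barhl1, a homeobox target of Atoh1, differed by 0.06 (SE 0.14, adjusted p = 0.951). Selm, a selenoprotein, differed by 1.19 (0.213) and Hes6, a helix-loop-helix factor of the Hes family, by 0.89 (0.642). Nhlh2, a neuronal helix-loop-helix factor, differed by -0.55 (0.324) and Tcf12, an E protein partner, by -0.63 (0.703).

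Axon guidance and synaptic genes held fewer members with one direction. Of 16 axon guidance and migration genes, 0 passed, 4 were lower in all 3 tumours (25.0%) and 2 higher in all 3, with a median of -0.15. In tumour 1, which was not in the fit, their median was 0.036. Sema6a, a semaphorin of migrating granule cells, differed by -0.66 (adjusted p = 0.619) and L1cam, an axonal adhesion molecule, by -1.04 (0.619). Of 22 synaptic and excitability genes, 0 passed, and 2 were lower and 3 higher in all 3 tumours, shares of 9.09% and 13.6% that lie near or below those of all genes. Their median was -0.20, and by tumour it was -0.22, -0.23 and 0.006 in tumours 2, 3 and 4 and 0.25 in tumour 1. Syn1, a synaptic vesicle protein, differed by -0.53 (0.732). By tumour Syn1 differed by -0.88, -0.72 and 0.008 in tumours 2, 3 and 4 and by 0.59 in tumour 1.

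In the other direction, the genes with the lowest p included a D cyclin, chromatin and nucleolar genes and secreted factors, and none of them passed. Ccnd1, cyclin D1, which carries SHH signalling into the cell cycle, stood at 259, 301 and 240.2 CPM with Atoh1 and at 74.0, 135 and 199 without. The groups did not overlap, as for 4.07% of all genes in this direction, and in tumour 1 the levels were 378 and 129 CPM. The difference was 1.01 (SE 0.23, n = 3, adjusted p = 0.199), and by tumour it was 1.68, 1.10 and 0.26 in tumours 2, 3 and 4. C1ql1, a secreted C1q-like protein, was at 196, 331 and 190.2 CPM with Atoh1 and at 116, 153 and 59.6 without (1.10, SE 0.22, adjusted p = 0.0833). In tumour 1 it was 139 with and 317 without, the other direction.

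H2afz, the histone variant H2A.Z, differed by 0.44 (adjusted p = 0.0593), and Npm1, nucleophosmin of the nucleolus, by 0.41 (0.199). Both have near-identical copies and are uncertain. Srebf1, a regulator of lipid synthesis, differed by 1.04 (0.156), Mdk, the growth factor midkine, by 0.59 (0.156), Prdx1, a peroxidase, by 0.58 (0.199), and Islr2, a neuronal membrane protein, by 0.82 (0.39). Of the 10 genes of lowest p in this direction 6 kept their direction in the 7 pairs of tumour 1, and of the 12 lower genes, the 2 called ones included, 8 did. How many of all tested genes did so was not worked out, so these counts have no background to be read against.

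**Figure D4:**
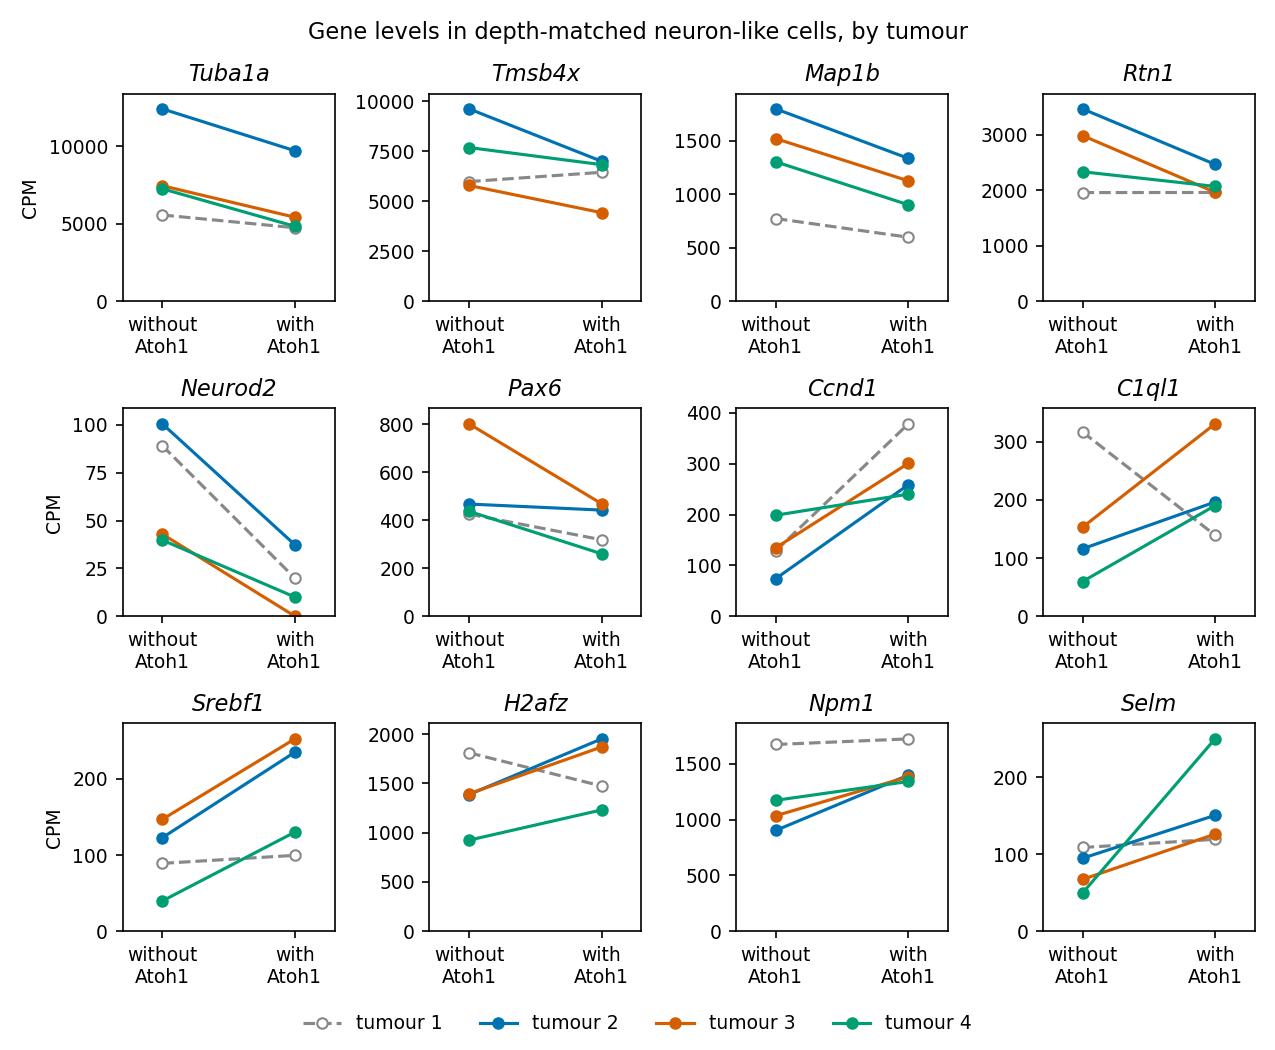
Level (CPM, y axis from 0) of 12 genes in depth-matched neuron-like cells without and with Atoh1 (x axis); each line is a tumour, and tumour 1 (dashed, open points, 7 pairs) was not in the fit. Tuba1a goes from 12415.5 to 9713 CPM in tumour 2, and Ccnd1 from 74.0 to 259 CPM; C1ql1 runs in the other direction in tumour 1.

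SHH pathway genes showed no gene past the threshold among 10 tested, with 4 higher in all 3 tumours (40%), 1 lower in all 3 and a median of 0.25. Gli1, a transcription factor and target of SHH, was at 20.7, 12.03 and 0 CPM with Atoh1 and 19.6, 6.12 and 19.9 without (-0.36, SE 0.48, adjusted p = 0.898). In the class without Atoh1, 1 UMI stood for about 6.1 CPM in tumour 3 and about 9.9 CPM in tumour 4, so Gli1 rests on few UMIs there. Gli2, the main activator, differed by 0.17 (SE 0.46, adjusted p = 0.955). The direction of both genes changed with the processing. Mycn, a growth driver downstream of SHH, was at 340.2, 469 and 130.1 CPM with Atoh1 and 247, 459 and 119 without (0.20, SE 0.17, adjusted p = 0.833). Spop, a ubiquitin ligase adaptor, differed by 0.62 (0.708). Of 7 D cyclins and G1 kinases, 3 were higher in all 3 tumours and 1 lower. Ccnd2, cyclin D2, stood at 1275, 1516 and 1001 CPM with Atoh1 and at 1041, 1396 and 785 without (0.25, SE 0.091, adjusted p = 0.619). Cdk6, a kinase that D cyclins activate, differed by -0.26 (0.846).

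Of 27 genes of G1/S and replication, 0 passed and 11 were higher in all 3 tumours (40.7%), with 1 lower and a median of 0.20. Mcm6 and Mcm2, subunits of the replicative helicase, differed by 1.12 (SE 0.34, adjusted p = 0.549) and 0.41 (SE 0.36, 0.838). By tumour, Mcm6 differed by 0.91, 0.10 and 2.33 in tumours 2, 3 and 4, and by 0.51 without tumour 4. Mcm2 differed by 1.18, -0.78 and 0.82, the other direction in tumour 3. Summed over the list, the level was 2400, 1908, 1761 and 1097 CPM with Atoh1 in tumours 1 to 4 and 1435, 1346, 1677 and 851 without, higher with Atoh1 in each of the 4. Of 15 mitotic genes that the rule did not use, 0 passed, 6 were higher in all 3 tumours (40%) and 0 lower, with a median of 0.10. Their summed level was 970, 1118 and 907 CPM against 731, 881 and 732 in tumours 2, 3 and 4. In tumour 1, which was not in the fit, their median difference was 0.0. Mki67, a proliferation marker, differed by -0.12 (SE 0.38, adjusted p = 0.963). The rule allows up to 2 mitotic genes, and among cells with none of them, in the 2 tumours with enough pairs, 7 genes were lower and 5 higher.

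The ribosomal protein genes had the largest share of members with one direction among the lists. Of 79 tested, 77 had a positive difference, 59 were higher in all 3 tumours (74.7% against 14.6% of all genes) and 49 had an unadjusted p under 0.05, but 0 passed the threshold. Their median difference was 0.17, and it was 0.19, 0.14 and 0.18 in tumours 2, 3 and 4 and 0.06 in tumour 1. Together they took 168286, 164751 and 215433 CPM with Atoh1 and 146438, 152347 and 188715 without. Rpl12 and Rpl29 of the large subunit differed by 0.41 (adjusted p = 0.324) and 0.42 (0.467), and Rps26 of the small subunit by 0.35 (0.126). Rps3a3, which the annotation lists as a processed pseudogene, differed by 0.31 (0.752), and it stood at 42.9 and 90.2 CPM with Atoh1 in tumours 2 and 3 but at 1621 CPM in tumour 4. Ribosomal protein genes have many processed copies, so single genes are uncertain, and their differences are not independent of one another.

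Of 9 Notch pathway genes, 0 passed, 4 were higher in all 3 tumours and 0 lower, with a median of 0.22. Hey1, a Notch target, was at 184, 222.5 and 150.1 CPM with Atoh1 and 127, 135 and 89.4 without (0.62, SE 0.21, adjusted p = 0.619). Its groups did not overlap, while tumour 1 had 130 with and 148 without. Rbpj, the nuclear partner of Notch, differed by 0.72 (0.708). Oxidative phosphorylation (median 0.02 over 74 genes) and mitochondrial transcripts (-0.02 over 14) lay near 0. Glycolysis (0.08 over 15) and chromatin regulators (0.10 over 18) had small positive medians. Of their genes, 5 (33.3%) and 5 (27.8%) were higher in all 3 tumours, against 14.6% of all genes, and 1 and 2 were lower in all 3. In these lists 0 genes passed. Cell cycle exit genes (-0.17 over 12) and immediate early and dissociation stress genes (-0.16 over 9) had medians of different sign across the tumours.

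**Figure D5:**
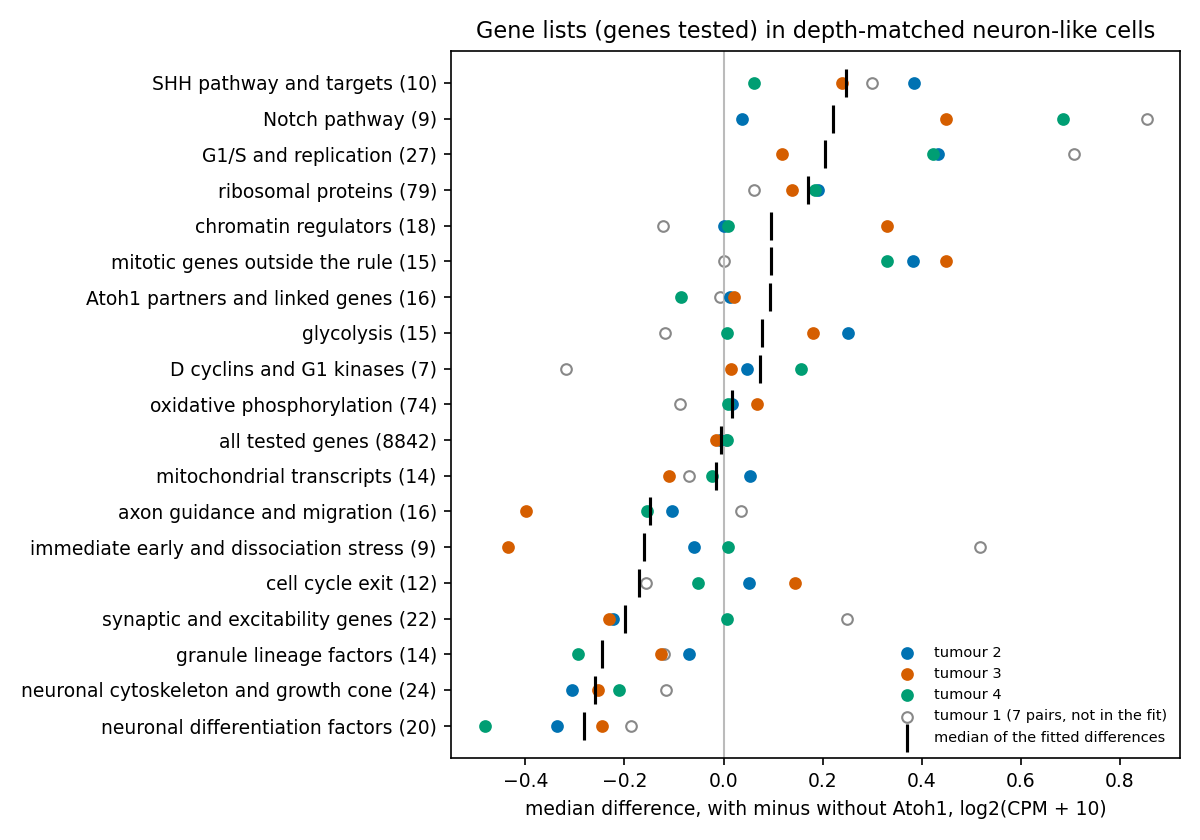
Median difference between neuron-like cells with and without Atoh1 (x axis, log2(CPM + 10)) for each gene list (y axis, genes tested in parentheses), in tumours 2, 3 and 4 (filled points) and tumour 1 (open points, not in the fit); the bar is the median over genes of the fitted difference. Ribosomal proteins lie above 0 and neuronal cytoskeleton, neuronal differentiation and granule lineage lists below 0 in all 4 tumours.

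Markers of other cell types differed between the classes in some tumours. The 7 oligodendrocyte lineage markers summed to 637, 95.3, 216 and 498 CPM in matched cells with Atoh1 of tumours 1 to 4 and to 198, 102, 153 and 168 without, so they were higher with Atoh1 in tumours 1, 3 and 4. Olig2, a factor of that lineage, was at 0, 30.1 and 80.1 CPM against 0, 6.12 and 19.9 in tumours 2, 3 and 4 (0.97, SE 0.45, adjusted p = 0.704). In the class with Atoh1, 1 UMI stood for about 6.0 CPM in tumour 3 and about 10 CPM in tumour 4, so Olig2 rests on few UMIs. The 4 skeletal muscle markers were low, at 29.9, 27.6, 36.1 and 9.97 CPM with Atoh1 and 69.3, 2.79, 12.2 and 0 without, and Myod1, the muscle factor among them, differed by 1.20 (SE 0.44, adjusted p = 0.633). The 6 astrocyte markers summed to 299, 106, 210.3 and 239 CPM with and 129, 128, 398 and 198 without, and the 6 microglia and macrophage markers to 59.8, 13.8, 18.0 and 359 with and 89.1, 18.1, 24.5 and 287 without, with no shared direction. The neutrophil genes were at 99.6, 6.91, 18.0 and 538 CPM with Atoh1 and 99.0, 66.9, 12.2 and 653 without. Sox2 fell below the detection minimum. No doublet caller was run. The part that mixed droplets or free RNA have in these differences was not tested.

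The levels in progenitor-gate cells with Atoh1 place the differences. For 21 of the 22 genes that were called or had the lowest p, the mean level in progenitor-gate cells of tumours 2, 3 and 4 lay beyond that of neuron-like cells with Atoh1, on the side away from neuron-like cells without it; Islr2 was the exception. Tuba1a stood at 2686, 2488 and 1741 CPM in progenitor-gate cells with Atoh1 of tumours 2, 3 and 4, Map1b at 268, 513 and 178, and Ccnd1 at 550.4, 530.4 and 396. The 22 genes were chosen from the contrast itself, so this is a description. The share of all tested genes that lay this way was not worked out, so the count of 21 has no background. The progenitor gate takes cells with few of the neuronal rule genes. Low levels of other neuronal genes, such as Tuba1a and Map1b, in these cells are therefore not independent of the gate. How far the gate sets the direction was not tested.

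Whether the contrast was larger in neuron-like than in progenitor-gate cells was tested as the difference of the 2 contrasts within a tumour. Both cell groups had 10 pairs in tumours 2 and 3 only. Of the 8919 genes 1 passed (0.0112%), while 469 (5.26%) were under 0.05 before adjustment. The gene was Tuba1a, whose difference was -0.35 and -0.46 in neuron-like cells and 0.13 and 0.18 in progenitor-gate cells of tumours 2 and 3. The difference of contrasts was -0.56 (SE 0.12, n = 2, limma adjusted p = 0.029). In this fit limma took the SE almost wholly from its trend over all genes. The SE and p therefore do not measure the spread of Tuba1a between the 2 tumours. With at least 5 pairs per group all 4 tumours entered, and the value was -0.17 (SE 0.13, adjusted p = 0.936), with 0.0% of 9295 genes passing and 5.4% under 0.05 before adjustment. In tumours 1 and 4 Tuba1a was also lower with Atoh1 in progenitor-gate cells, by -0.73 and -0.52. With thinned cells, in tumours 2, 3 and 4, it was -0.55 and passed, as did Rtn1 at -1.11. The larger contrast of Tuba1a in neuron-like cells was thus measured in tumours 2 and 3 and with thinning, and did not pass over all 4 tumours. Within progenitor-gate cells alone, limma called 0 of 8772 genes, and 415 (4.73%) had an unadjusted p under 0.05.

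Thinning in place of pairing kept every neuron-like cell of at least 3700 UMIs with its class. It called 20 lower and 10 higher of 7149 genes (0.28% and 0.14%), and all 30 had the same direction in the paired cells. Among the lower ones were Tuba1a (-0.58), Tmsb4x (-0.47), Tubb2b (-0.66), Tubb5 (-0.39), Map1b (-0.58), Stmn4 (-0.86), Rtn1 (-0.55), Itm2b (-0.63), Celf4 (-0.77) and Pax6 (-0.80). Among the higher ones were Ccnd1 (1.56), Ccnd2 (0.54), C1ql1 (1.19), Srebf1 (1.68), H2afz (0.46) and Rpl12 (0.55). Of the 22 genes that were called or had the lowest p in the paired cells, 12 passed with thinned cells, and all 22 had the same direction. The paired cells were drawn from the same neuron-like cells of these tumours, with the same classes. Neither of these shared directions is therefore independent support. The class with Atoh1 was still set at the deposited depth here, so deeper cells entered it more often. When the class was set from the thinned counts, tumour 1 entered the fit in place of tumour 4 and 0 genes passed, with Tuba1a at -0.34 (adjusted p = 0.860). With no control of depth at all, limma called 141 lower and 159 higher of 8861 genes (1.59% and 1.79%).

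Pairs that were matched on the number of neuronal and mitotic rule genes as well as on depth, in the 2 tumours with enough pairs, gave 18 lower and 12 higher genes. Tuba1a differed by -0.63, Map1b by -0.52, Dbn1 by -1.18, Ccnd1 by 1.44 and Srebf1 by 1.46 there, over tumours 2 and 3. Matched on depth alone, these 2 tumours gave 1.68 and 1.10 for Ccnd1 and -0.77 and -1.32 for Dbn1. The values matched on rule genes lie between these. For Tuba1a (-0.35 and -0.46), Map1b (-0.43 and -0.43) and Srebf1 (0.88 and 0.74), the differences matched on depth alone were smaller in both tumours. Across neuron-like cells at equal depth, correlations of single genes with Atoh1 were weak and differed between tumours, the highest mean over tumours being 0.29 for Rpl12 among 7938 genes, and in counts this sparse they are no finding.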

How the data were processed

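Live cells of 4 tumours from Ptch1+/- mice were run on the 10x Genomics system, as the labels say. The submitters' processing notes name Cell Ranger, Seurat and mm10 with no version. The authors deposited log2 values, log2(UMI count / size factor + 1), a form read from the values. Whole UMI counts were worked out for all values within a relative tolerance of 1e-06. The total per library was 19446245, 23439893, 10458431 and 18242667 UMIs. Of 13149 genes listed for all 4 tumours, 8842 with a UMI in at least 5% of matched cells were tested, and the 17 genes of the rule were not.

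Cells were paired by optimal assignment (scipy 1.17.1), summed per tumour and class, and tested with limma 3.58.1 (R 4.3.3, trend and robust) on within-tumour differences of log2(CPM + 10), with Benjamini-Hochberg adjustment and at least 10 pairs. The labelled number of a tumour pairs its own 2 classes of cells, so the tumour is the block. The script was tested on simulated data. Gene positions came from the GENCODE M21 annotation of GRCm38, in which 119 of 121 symbols were found.

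Named genes were those past the threshold, the 10 of lowest p in each direction (ribosomal protein and pseudogene-like symbols aside), a fixed list of 20, and the 4 list members with the largest difference. List members below a mean of 50 CPM in the higher class, and those of the cell cycle exit, chromatin, glycolysis, stress, oxidative phosphorylation and mitochondrial lists, are given by counts only, a limit set after their values were seen. A few genes that this naming rule picks are not reported here. Neuron-like cells and all lists were chosen with earlier results of these data known. The alternatives of the closing section were tried, and 4 of them were added after seeing the data.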

Additional observations from a re-analysis of the deposited data

Results flagged for a closer look

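In neuron-like cells at the deposited depth, the share with at least 2 Atoh1 UMIs was 60.7% in tumour 1 (17 of 28 cells) and 11.5%, 16.5% and 15.4% in tumours 2, 3 and 4. Tumour 1 stood apart from tumours 2, 3 and 4 by the size of the gap against the whole range. Atoh1 chose the classes and the depths were unequal, so this is a description with no test. Its neuron-like cells held a median of 14143 UMIs, against 5827, 4955 and 7298. At 3700 UMIs per cell the shares were 25.0%, 5.17%, 11.4% and 2.00%, and no tumour stood apart.

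The Atoh1 contrast of Tuba1a differed between neuron-like and progenitor-gate cells by -0.56 (SE 0.12, n = 2, limma adjusted p = 0.029) in tumours 2 and 3. This SE came almost wholly from the trend over all genes, not from the spread of the 2 tumours. Over 4 tumours with at least 5 pairs the difference of contrasts was -0.17 (adjusted p = 0.936).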

How the results depend on the processing

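Against 2 lower and 0 higher genes, the fit called 141 lower and 159 higher with no depth control, 20 and 10 with thinned cells, and 0 and 0 with classes from thinned counts. It called 0 and 0 with no replicate block, 0 and 0 with a pseudocount of 1, 7 and 3 with a pseudocount of 50, 4 and 2 on mean log2 values, 1 and 0 with median-ratio scaling, and 17 and 23 with no detection filter. It called 8 and 7 without the deepest 5% of cells, 4 and 1 with a caliper of 0.2, and 1 and 0 with at least 5 pairs, over 4 tumours. Over 2 tumours it called 18 and 12 when matched also on rule genes, 4 and 2 with at least 2 Atoh1 UMIs, 7 and 5 with none of the mitotic genes, and 35 and 23 without cells with immune transcripts. Leaving out each tumour in turn gave 1 to 31 lower and 0 to 23 higher genes. Tuba1a kept its direction in 19 of 19 alternatives and passed in 16, and Tmsb4x in 19 and 12. The medians of the neuronal cytoskeleton, neuronal differentiation, granule lineage, axon guidance, synaptic, ribosomal, G1/S and Notch lists kept their sign in 19 of 19, with ranges of -0.56 to -0.17, -0.42 to -0.093, -0.25 to -0.034, -0.94 to -0.048, -0.57 to -0.071, 0.13 to 0.28, 0.043 to 0.53 and 0.038 to 0.80 in that order. These medians are of fitted differences, and single tumours did not all share their sign. The synaptic median was 0.006 in tumour 4 and 0.25 in tumour 1, and that of axon guidance 0.036 in tumour 1. For the difference of contrasts, against 1 gene, 0 passed with at least 5 pairs, 2 with a pseudocount of 1, 0 with a pseudocount of 50 and 2 with thinned cells. The mean share with Atoh1 over tumours was 31.1% at 1 UMI and 10.9% at 2.

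Directions reversed as follows, and the cause was not tested. With classes from thinned counts Gli1 was 1.29, Tcf12 0.48, Rbfox3 0.33, Nhlh2 0.25, Scrt2 0.24, Cdk6 0.064, Hes6 -0.090, Islr2 -0.14, Myod1 -0.71 and Rbpj -1.14. With thinned cells Mki67 was 0.053 and Cdk6 0.019. At 2 Atoh1 UMIs Gli1 was 0.87, Tcf12 0.28 and Gli2 -0.33. With none of the mitotic genes Scrt2 was 0.35, Gli1 0.25, Actb 0.086 and Mcm2 -0.27. Matched also on rule genes, Gli1 was 0.043. With no depth control Gli1 was 0.49 and Mki67 0.17. Without immune transcripts Gli1 was 0.32, Cdk6 0.023 and Gli2 -0.16. Leaving out each tumour in turn, Gli1 ranged from -0.76 to 0.25, Gli2 from -0.049 to 0.60, Mki67 from -0.34 to 0.22 and Barhl1 from -0.026 to 0.17. Gli2 was -0.24 at a pseudocount of 1, Cdk6 0.027 on mean log2 values and Mki67 0.16 with a caliper of 0.2.

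Cells with all 5 neuronal genes reached the minimum of 10 pairs in tumour 2 only, a progenitor gate with none of these genes reached it in no tumour, and the difference of contrasts without tumour 2 or 3 would rest on 1 tumour, so these were not run. The labels give nothing about separate batches. The precision is limited by 3 tumours of 13 to 91 pairs.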

Other observations

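Malat1, a nuclear noncoding RNA, was singled out after its values were seen. It stood at 17334, 18818 and 17136 CPM with Atoh1 and at 20263, 23073 and 31922 CPM without in tumours 2, 3 and 4, so it was lower in each, with no overlap of the groups. By tumour it differed by -0.23, -0.29 and -0.90, and without tumour 4 by -0.26. Its difference was -0.47 (SE 0.20, n = 3, limma adjusted p = 0.744) in paired cells and -0.56 with thinned cells, where it passed the threshold.

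The levels of Rps3a3, a processed pseudogene in the annotation, differed between libraries far more than between classes. In progenitor-gate cells with Atoh1 it stood at 1872, 43.3, 91.0 and 1980 CPM in tumours 1 to 4, so tumours 1 and 4 lay more than an order of magnitude above tumours 2 and 3. The cause was not tested.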
